A study of Mus musculus with 93 samples.

Results

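The ligand Cxcl12 and its receptors Cxcr4 and Ackr3 (older symbol Cxcr7) were followed in precardiac cells of the mouse. They were chosen by name as one signalling axis and are 3 of the 24514 gene symbols in the count table. The cells came from Hcn4GFP; Tbx1Cre; Ai9 embryos or from spheroids grown from 1 embryonic stem cell line of that genotype, so every group carried the same 3 alleles. GFP reports current Hcn4 expression and was used for the first heart field, whereas the Ai9 reporter (RFP) stays on in all progeny of cells that once expressed Tbx1-Cre and was used for the second heart field. RNA of 10 sorted cells per well was amplified and sequenced for 5 GFP+ and 4 RFP+ wells in vivo, and for 38 GFP+ and 46 RFP+ wells from spheroids at day 5.5 in vitro. The spheroids had been induced with growth factors, and the labels do not assign a mix to single wells. The embryos are placed at embryonic day 8.5 by the sample titles and at E7.75 by the protocol, and no source assigns wells to embryos or differentiations. All p-values below therefore measure the spread between wells, which may be partly technical.

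Chemokines are small secreted proteins that direct migrating cells. Cxcl12 binds Cxcr4, a receptor that signals through inhibitory G proteins, and it also binds Ackr3, an atypical receptor that recruits arrestins and removes Cxcl12 from the cell's surroundings. In embryos this axis is known to act in gastrulating mesoderm, in neural crest cells and in the growth of the outflow tract and coronary vessels, and Cxcr4 is widely used as a surface marker in cell sorting.

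The 3 genes lie apart from any other annotated gene (GENCODE M21, GRCm38, the assembly of mm10), so reads on them are not shared with an overlapping gene. Cxcl12 spans chr6:117168535-117181367 on the plus strand, with 4 transcripts of 3 to 4 exons. Cxcr4 spans chr1:128588199-128592293 on the minus strand, with 2 transcripts of 2 exons. Ackr3 spans chr1:90203980-90216751 on the plus strand, with 2 transcripts of 2 to 3 exons. The 250 bases upstream of each start (RefSeq, GRCm38.p6) are shown to set the promoters of the 3 genes side by side. How alike these windows are was not measured. Capitals mark matches on either strand to GCGCATG (part of the NRF1 motif), TATAAA (the TATA box) or GGGCGG (the GC box), and ACGTG (the core of the hypoxia response element) was also searched. The windows are chr6:117168285-117168534 for Cxcl12, chr1:128592300-128592549 for Cxcr4 and chr1:90203730-90203979 for Ackr3, each written 5′ to 3′ on the gene's own strand.
Cxcl12: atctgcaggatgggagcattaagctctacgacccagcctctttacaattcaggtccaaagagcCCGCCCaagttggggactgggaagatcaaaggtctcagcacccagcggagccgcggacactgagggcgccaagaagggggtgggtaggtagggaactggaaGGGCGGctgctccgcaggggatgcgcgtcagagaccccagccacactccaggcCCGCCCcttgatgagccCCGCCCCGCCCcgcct
Cxcr4: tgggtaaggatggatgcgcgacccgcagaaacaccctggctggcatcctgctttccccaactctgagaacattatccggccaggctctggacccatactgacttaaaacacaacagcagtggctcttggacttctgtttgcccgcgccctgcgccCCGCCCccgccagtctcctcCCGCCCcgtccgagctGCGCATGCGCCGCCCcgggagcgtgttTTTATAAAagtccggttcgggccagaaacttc
Ackr3: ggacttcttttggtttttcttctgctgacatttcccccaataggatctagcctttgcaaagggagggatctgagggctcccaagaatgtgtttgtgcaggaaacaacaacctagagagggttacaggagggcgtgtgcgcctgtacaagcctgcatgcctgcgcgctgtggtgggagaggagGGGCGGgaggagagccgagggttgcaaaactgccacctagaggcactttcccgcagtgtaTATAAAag
The Cxcl12 window held 5 GC boxes, a pair of which share a base, and no TATA box. The Cxcr4 window held 3 GC boxes, an overlapping pair of matches to the NRF1 letters on opposite strands that begins 59 bases before the start and shares a base with one of those GC boxes, and TATAAA on both strands in an overlapping pair about 30 bases before the start. The Ackr3 window held 1 GC box, and 1 TATAAA that begins 8 bases before the start. None of the 3 held ACGTG. Among 32851 promoter windows of this length, 32.7% held a GC box, 12.4% a TATA box, 16.6% ACGTG and 3.24% the NRF1 letters. GC content was 64.4% for Cxcl12, 61.2% for Cxcr4 and 54.0% for Ackr3. These matches describe the letters only.

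Between 712732 and 2525460 reads per well were counted on genes in vivo, and medians in vitro were 1706391 in GFP+ and 1449700 in RFP+ wells. Levels are given as CPM, a count divided by the well's total and multiplied by 1000000. In GFP+ wells of embryos 1 count was worth 0.396 to 1.40 CPM, so a well without counts allows up to 1.19 to 4.21 CPM (3 counts). In vitro GFP+ well C9 held only 6288 reads and none on the 3 genes, which there allows up to 477 CPM. In all, 7 pairs of RFP+ wells in plate columns 3 and 4 (same rows) were closer to each other than other wells but differed by more than sampling noise, and they were kept as separate wells. The labels do not say whether these pairs are separate samples. Summing each pair, which leaves 39 RFP+ spheroid wells, changed no call of the 3 genes. The reporter genes followed the labels: Hcn4 was detected in 5 of 5 GFP+ and 1 of 4 RFP+ wells in vivo, and Tbx1 in 0 of 5 and 3 of 4. The summed level of 13 second heart field markers had medians of 176 and 471 CPM in vivo and 151 and 333 CPM in vitro, in GFP+ and RFP+ wells. Of 8 tested in vitro, 6 were called higher and 1 lower in RFP+ cells, beside 37.8% and 40.1% of all genes. The lower one was Isl1 (means of 62.5 and 24.7 CPM). Cardiomyocyte transcripts, summed over 10 genes, had medians of 27127 and 1935 CPM in GFP+ and RFP+ embryo wells. In GFP+ and RFP+ spheroid wells the medians were 55.7 and 56.1 CPM, so this sum did not separate the spheroid populations by median. Of 4 such genes tested in vitro, 3 were called lower in RFP+ cells, beside 40.1% of all genes. Each well pools cells, so fewer expressing cells and less RNA per cell cannot be told apart.

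**Figure D1:**
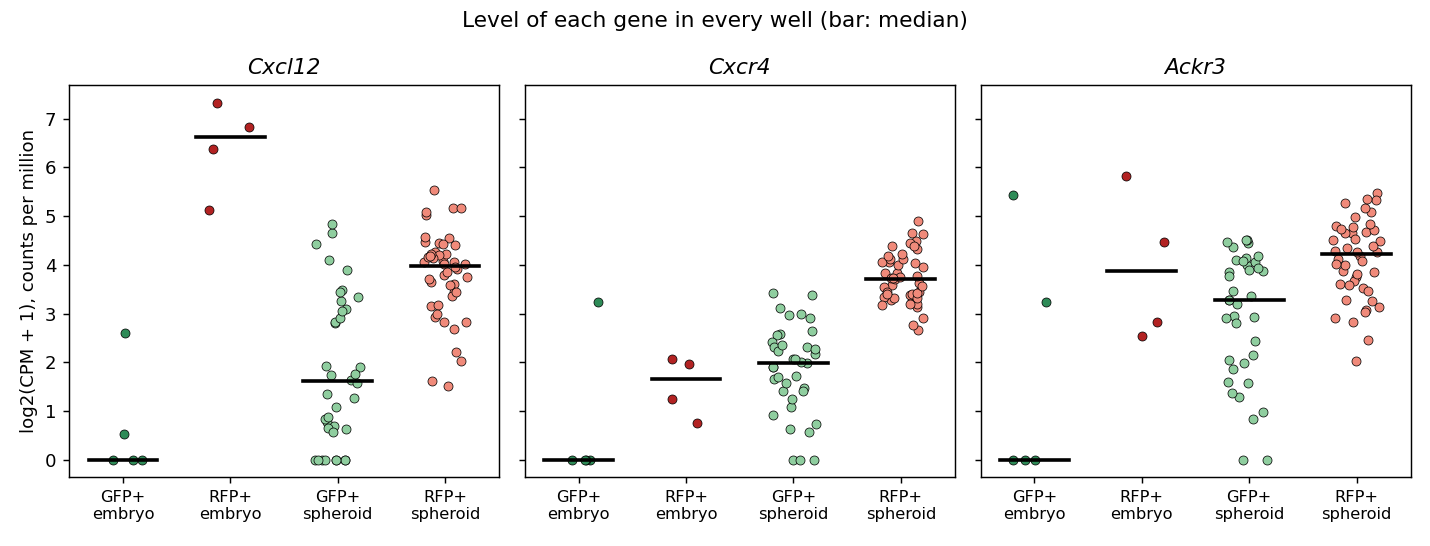
Levels of Cxcl12, Cxcr4 and Ackr3 as log2(CPM + 1), with 1 point per well and a bar at the median of each group. The 4 RFP+ embryo wells lie above all other groups' medians for Cxcl12 (33.8 to 160 CPM), whereas for Cxcr4 the RFP+ spheroid wells are highest (5.31 to 29.0 CPM).

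In vivo, the ligand separated the populations and neither receptor did. The GFP+ embryo wells held fewer detected genes (6189 to 8302 per well) than the RFP+ embryo wells (10263 to 13052), and log2 CPM correlated less between them (Pearson's r of 0.672 to 0.764 against 0.904 to 0.956 over pairs of wells). The part of this in the zeros of GFP+ wells was not tested. Cxcl12 counts were 5, 0, 0, 1 and 0 in the GFP+ wells and 154, 121, 199 and 50 in the RFP+ wells. These are 1.11 ± 2.24 CPM (SD, n = 5) and 97.1 ± 52.8 CPM (SD, n = 4), and the lowest RFP+ well (33.8 CPM) lay above the highest GFP+ well (5.10 CPM). Cxcl12 was higher in RFP+ cells by a log2 fold change of 6.39 (SE 1.43, adjusted p = 0.0248, edgeR's quasi-likelihood test with Benjamini-Hochberg adjustment, called below 0.1). An exact two-sided permutation test of mean log2 CPM gave p = 0.00794, which is the smallest p that 5 against 4 wells can give. Of the genes tested, 6.21% were called higher in RFP+ cells, and 13.6% were higher without overlap of the wells. Without well G12, the RFP+ well with the most Cxcl12, the fold change was 6.02 and its adjusted p rose to 0.108. Transcripts of 10 endothelial markers also differed, with sums of 0 to 104 CPM in GFP+ and 59.4 to 395 CPM in RFP+ wells. Of these markers, 6 (Pecam1, Cdh5, Tie1, Emcn, Erg and Sox18) had no count in any GFP+ well and all 10 were counted in RFP+ wells. Tek went the other way, with means of 31.1 CPM in GFP+ and 14.1 CPM in RFP+ wells (adjusted p = 0.916, edgeR). Of 3 endothelial genes tested, 1 (Emcn) was called higher and none lower, beside 6.21% and 3.88% of all genes. Sums of endoderm, neural and neural crest markers were also higher in RFP+ wells by median. Median sums in GFP+ and RFP+ wells were 1.02 and 124 CPM for 12 endoderm and 0 and 37.2 CPM for 8 neural genes. Those of 6 neural crest genes were 0 and 63.0 CPM. Of these, 10 endoderm, 7 neural and 5 neural crest genes had no count in any GFP+ well. The share of all genes without a count there, where fewer genes were detected, was not computed. These zeros and those of the endothelial markers therefore give no measure of cell type by themselves. Apoa1 (means of 4.26 and 0.70 CPM) and Apoa2 (1.27 and 0 CPM), of the endoderm list, were higher in GFP+ wells. The sum of 8 pluripotency genes was lower in RFP+ wells, with medians of 212 CPM in GFP+ and 18.4 CPM in RFP+ wells. It was mainly Tdgf1 (means of 176 and 27.3 CPM). For 10 blood genes both medians were 0. The part of these markers in the Cxcl12 result was not tested.

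Cxcr4 was scarce in both embryo populations. The GFP+ wells held 0, 0, 6, 0 and 0 counts and the RFP+ wells 4, 2, 4 and 1, or 1.68 ± 3.76 (SD, n = 5) against 2.04 ± 1.22 CPM (SD, n = 4). The single GFP+ well with counts (C12, 8.42 CPM) was higher than every RFP+ well. The gene did not pass the filter on low counts for the edgeR test, and mean log2 CPM differed by 0.67 (exact two-sided permutation p = 0.381). Without well C12 the difference was 1.26 (exact permutation p = 0.0286), so that well decided the call. That p is the smallest that 4 against 4 wells can give. It sets GFP+ wells without a count against RFP+ wells with 1 to 4 counts.

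Ackr3 varied between wells of the same population by more than the populations differed. Its counts were 0, 106, 6, 0 and 0 in GFP+ wells and 76, 31, 6 and 9 in RFP+ wells. The means were 10.1 ± 18.2 CPM (SD, n = 5) and 21.9 ± 23.6 CPM (SD, n = 4). The high GFP+ well was B12, with 42.0 CPM, and 3 of 5 GFP+ wells had none. The log2 fold change was 1.01 (SE 1.81, adjusted p = 0.916, edgeR), and mean log2 CPM differed by 1.92 (exact two-sided permutation p = 0.230). Without B12 Ackr3 failed the filter of the edgeR test, and mean log2 CPM differed by 2.73 (exact permutation p = 0.0857).

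In vitro, all 3 genes were higher in RFP+ cells, and Cxcr4 separated the populations most clearly. Marker sums of other cells also differed, with medians in GFP+ and RFP+ wells of 236 and 43.8 CPM for 8 pluripotency genes. The medians were 315 and 194 CPM for 12 endoderm genes and 12.0 and 28.6 CPM for the endothelial genes. Of 6 endoderm genes tested, 2 (Cer1 and Foxa2) were called higher and 4 lower in RFP+ cells, beside 37.8% and 40.1% of all genes. Among endothelial genes only Kdr was tested (means of 1.19 and 16.1 CPM, called higher), and Pecam1 and Tek had lower means in RFP+ wells. The part of these markers was not tested. Cxcr4 had a range of 0 to 9.66 CPM (median 2.98) in GFP+ and of 5.31 to 29.0 CPM (median 12.1) in RFP+ wells. No GFP+ well reached the RFP+ median, and 31 of 46 RFP+ wells lay above the highest GFP+ well. The means were 3.32 ± 2.49 CPM (SD, n = 38) and 13.2 ± 5.33 CPM (SD, n = 46). Cxcr4 rose by a log2 fold change of 1.90 (SE 0.19, adjusted p = 9.2e-16, edgeR). In this comparison 77.9% of all genes tested were called and 37.8% were called higher in RFP+ cells, so a call by itself says little about any 1 gene. The study picked Cxcr4 as a surface marker with these same libraries at hand, and its direction here is not independent evidence. Apart from these libraries, the study reports the Cxcr4 difference by qPCR in vivo and in vitro. It also reports antibody staining of RFP+ but not GFP+ spheroid cells at day 5.5.

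Cxcl12 had a range of 0 to 27.6 CPM (median 2.05) in GFP+ wells and of 1.86 to 45.3 CPM (median 14.8) in RFP+ wells. Most wells were apart, but 4 of 38 GFP+ wells exceeded the RFP+ median and 1 of 46 RFP+ wells fell below the GFP+ median. The means were 5.17 ± 7.04 CPM (SD, n = 38) and 15.4 ± 9.23 CPM (SD, n = 46), and the log2 fold change was 1.51 (SE 0.30, adjusted p = 5.2e-06, edgeR). Ackr3 overlapped most, with 0 to 21.9 CPM (median 8.68) in GFP+ and 3.04 to 43.6 CPM (median 17.6) in RFP+ wells. Here 5 of 38 GFP+ wells exceeded the RFP+ median and 9 of 46 RFP+ wells fell below the GFP+ median. The means were 9.61 ± 7.01 CPM (SD, n = 38) and 18.9 ± 10.2 CPM (SD, n = 46), and the log2 fold change was 0.93 (SE 0.21, adjusted p = 5.3e-05, edgeR).

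Permutation tests of mean log2 CPM (two-sided, 100000 resamples) gave p = 1e-05 for Cxcr4 and Cxcl12, the smallest they can give, and p = 2e-05 for Ackr3. Across the 4 comparisons 12 such tests were made, and their p-values are unadjusted. All RFP+ spheroid wells sat in plate columns 1 to 6 and all GFP+ spheroid wells in columns 7 to 11, so population and column cannot be told apart. Column medians of Cxcr4 ran from 1.12 to 3.83 CPM over the 5 GFP+ columns and from 8.94 to 15.9 CPM over the 6 RFP+ columns. Those of Cxcl12 ran from 0.518 to 6.76 and from 11.3 to 17.2 CPM, without overlap. Those of Ackr3 overlapped, from 3.20 to 15.8 and from 14.3 to 25.6 CPM.

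**Figure D2:**
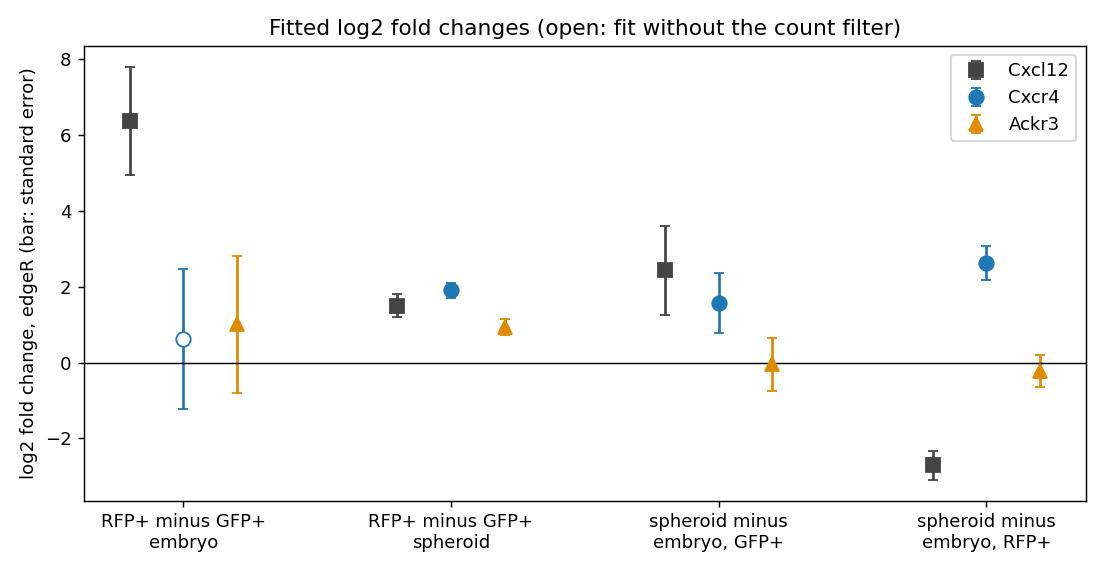
Log2 fold changes fitted by edgeR for each gene in the 4 comparisons, with bars of 1 standard error. The open circle is Cxcr4 in embryos (0.61, SE 1.85), fitted without the filter on low counts, and the filled values run from 6.39 for Cxcl12 in embryos to -2.71 for Cxcl12 between RFP+ sources.

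Setting the sources side by side, RFP+ cells differed in opposite directions for the ligand and its signalling receptor. Cxcr4 was higher in spheroids by a log2 fold change of 2.62 (SE 0.45, adjusted p = 4.1e-06, edgeR), and all 46 spheroid wells lay above the highest of the 4 embryo wells (3.21 CPM). Of all genes tested, 42.6% were called in this comparison, 22.5% higher in vitro, and 2.36% were higher in vitro without overlap. Cxcl12 was lower in spheroids by a log2 fold change of -2.71 (SE 0.39, adjusted p = 1.8e-10, edgeR), where 20.1% of genes were called lower. Its ranges still touched, since the lowest embryo well (33.8 CPM) lay below the highest spheroid well (45.3 CPM). Ackr3 gave -0.22 (SE 0.42, adjusted p = 0.711, edgeR) and its embryo wells lay within the range of the spheroid wells apart from F12 (55.4 CPM). The endothelial marker sum, at a median of 179 CPM in embryo and 28.6 CPM in spheroid RFP+ wells, moved with Cxcl12 and its part was not tested. Source, stage and plate column (embryos in columns 11 and 12) cannot be told apart.

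In GFP+ cells the same contrast was less certain. Cxcr4 was higher in spheroids by 1.57 (SE 0.80, adjusted p = 0.0996, edgeR) and Cxcl12 by 2.43 (SE 1.17, adjusted p = 0.0780, edgeR) on the log2 scale, and both are near the threshold. Here 68.0% of genes tested were called, 48.3% higher in vitro, and the median log2 fold change of all genes tested was 0.67. Ackr3 gave -0.05 (SE 0.70, adjusted p = 0.955, edgeR), and without embryo well B12 it gave 2.72 (adjusted p = 0.0118), so that well set its direction. The Cxcr4 call was lost when any of the wells A12, B12, D12 or E12 was left out (adjusted p of 0.238 to 0.261), and without C12 Cxcr4 rose by 5.70 (adjusted p = 8.7e-05). The Cxcl12 call was lost without B12, C12, D12 or E12 (adjusted p of 0.141 to 0.159), and without A12 Cxcl12 rose by 4.66 (adjusted p = 0.0119).

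The difference between populations was also compared between sources. For Cxcl12 it was smaller in vitro than in vivo by -4.88 on the log2 scale (SE 1.46, p = 0.0122), which after adjustment over 8182 genes was not called (adjusted p = 0.164), and 5.68% of genes were. For Ackr3 the difference was -0.08 (SE 1.83, adjusted p = 0.995). Cxcr4 could be compared only without the filter on low counts, where it was 1.35 (SE 1.86, adjusted p = 0.753). An interaction term in 1 edgeR fit over the 4 groups, which assumes that they share their spread, called Cxcl12 (-5.06, adjusted p = 0.000116) and neither receptor.

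The share of wells with any count was compared as well, since the levels are low. Cxcl12 was counted in 2 of 5, 4 of 4, 30 of 38 and 46 of 46 wells of GFP+ and RFP+ cells in vivo and then in vitro. Cxcr4 was counted in 1 of 5, 4 of 4, 35 of 38 and 46 of 46 wells, and Ackr3 in 2 of 5, 4 of 4, 36 of 38 and 46 of 46. By Fisher's exact test (two-sided) the in vitro populations differed in the share with Cxcl12 (p = 0.00112), whereas Cxcr4 (p = 0.0885) and Ackr3 (p = 0.202) were counted in nearly every well. In vivo the exact p was 0.0476 for Cxcr4 and 0.167 for both others. The Cxcr4 value rests on 1 to 4 counts per RFP+ embryo well, and with at least 3 counts it was 1 of 5 against 2 of 4 wells (exact p = 0.524). With at least 3 counts the shares did differ for Cxcl12 in vivo (1 of 5 against 4 of 4 wells, exact p = 0.0476) and for Cxcr4 in vitro (27 of 38 against 46 of 46 wells, exact p = 6.48e-05). Thinned to 400000 counts per well, the expected share with Cxcr4 was 56.9% in RFP+ embryo wells and 67.1% in GFP+ spheroid wells, against 98.9% in RFP+ spheroid wells. The corresponding shares were 100%, 56.2% and 96.5% for Cxcl12 and 96.1%, 84.9% and 99.0% for Ackr3. For GFP+ embryo wells they were 19.9% for Cxcr4, 22.1% for Cxcl12 and 39.9% for Ackr3.

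**Figure D3:**
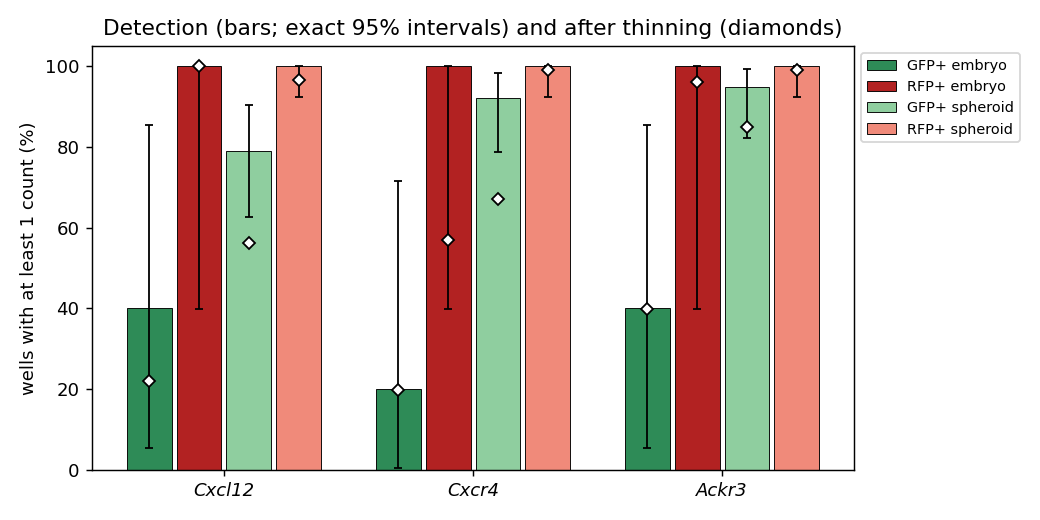
Percent of wells with at least 1 count of each gene, with exact (Clopper-Pearson) 95% intervals that cover counting error only, and diamonds at the expected percent after thinning to 400000 counts. In GFP+ embryo wells detection is 40.0%, 20.0% and 40.0%, and in both RFP+ groups it is 100% before thinning.

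Within single wells, all 3 genes were counted together in 4 of 4 RFP+ embryo wells, 46 of 46 RFP+ spheroid wells and 28 of 38 GFP+ spheroid wells. In GFP+ embryo wells, ligand and receptor were never counted in the same well: 2 of 5 wells held Cxcl12 alone, 1 held Ackr3 alone, 1 held both receptors, and 1 held none. The wells with Cxcl12 held only 5 and 1 counts of it, and whether ligand and receptor exclude each other was not tested. The ratio of Cxcl12 to Cxcr4 counts ran from 38.5 to 60.5 (median 49.9) over the 4 RFP+ embryo wells. Over the 46 RFP+ spheroid wells it ran from 0.10 to 7.0 (median 1.16), so every RFP+ embryo well exceeded every RFP+ spheroid well. The embryo ratios rest on only 1 to 4 Cxcr4 counts per well. For Cxcl12 to Ackr3 the ratio was 2.03 to 33.2 (median 4.73) in RFP+ embryo wells and 0.103 to 4.25 (median 0.683) in RFP+ spheroid wells, which overlap. In GFP+ spheroid wells the median ratios were 0.500 to Cxcr4 (35 wells with a count) and 0.321 to Ackr3 (36 wells). The highest there were 51.0 and 11.25, and the former lies within the range of the RFP+ embryo wells.

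**Figure D4:**
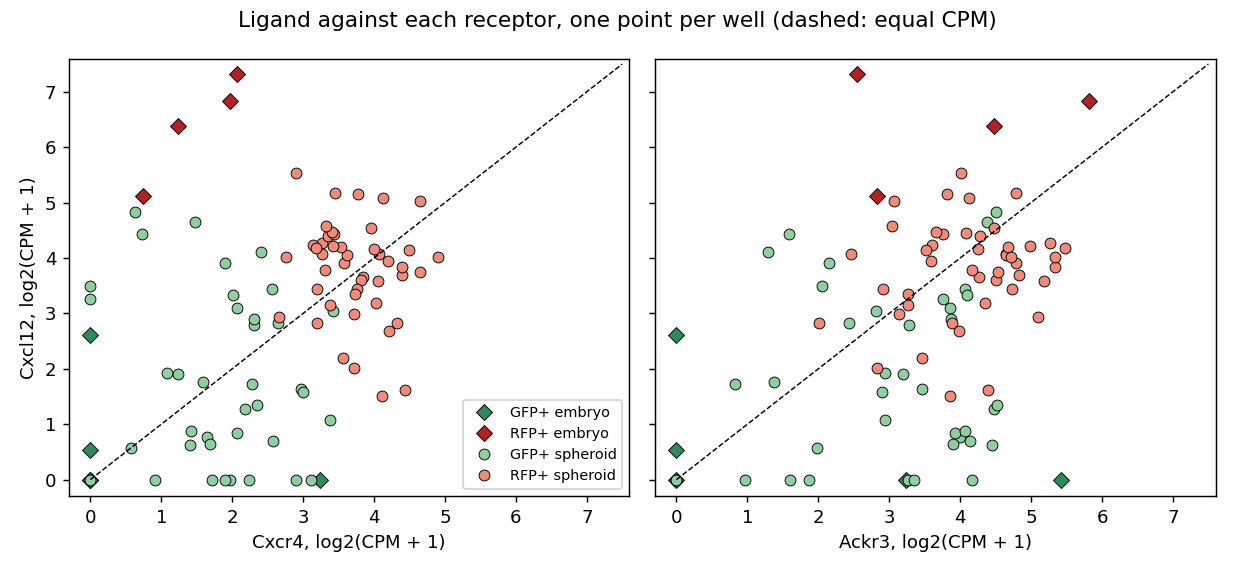
Cxcl12 against Cxcr4 (left) and against Ackr3 (right), both as log2(CPM + 1), with 1 point per well and a dashed line at equal CPM. The 4 RFP+ embryo wells lie above the line in both panels, and the RFP+ spheroid wells lie on both sides of it (Cxcl12 above Cxcr4 in 24 of 46 wells).

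Levels of different genes can be set beside each other only per length. With the merged exons as length (1808 bases for Cxcr4, 3348 for Ackr3, 8176 for Cxcl12), RFP+ embryo wells had 11.9 ± 6.46 RPKM of Cxcl12, 6.53 ± 7.04 of Ackr3 and 1.13 ± 0.674 of Cxcr4 (CPM per kilobase, SD, n = 4). In RFP+ spheroid wells the order of the means by the same lengths was the opposite, with 7.29 ± 2.95 RPKM of Cxcr4, 5.64 ± 3.05 of Ackr3 and 1.88 ± 1.13 of Cxcl12 (SD, n = 46). GFP+ spheroid wells had 2.87 ± 2.09 RPKM of Ackr3, 1.84 ± 1.37 of Cxcr4 and 0.632 ± 0.861 of Cxcl12 (SD, n = 38). GFP+ embryo wells had 3.01 ± 5.44 RPKM of Ackr3, 0.931 ± 2.08 of Cxcr4 and 0.136 ± 0.274 of Cxcl12 (SD, n = 5), which do not differ beyond their spread. Cxcl12 exceeded Cxcr4 in 4 of 4 RFP+ embryo wells and in 1 of 46 RFP+ spheroid wells. That pair kept its order with the shortest transcript of each gene (4 of 4 and 12 of 46 wells) and the longest (4 of 4 and 2 of 46). The other orders depended on the lengths, since Cxcr4 exceeded Ackr3 in 30 of 46 RFP+ spheroid wells with merged exons and in 3 of 46 with the shortest transcripts (902 and 404 bases). Cxcl12 likewise exceeded Ackr3 in 3 of 4 RFP+ embryo wells with merged exons and in 2 of 4 with the shortest transcripts, where the means were 51.7 and 54.2 RPKM.

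Across wells of 1 population the 3 genes showed weak correlations with each other. Over 39 RFP+ spheroid wells (the near-identical pairs summed), Spearman's rho of log2 CPM was -0.17 for Cxcr4 with Cxcl12, -0.04 for Cxcr4 with Ackr3 and 0.02 for Ackr3 with Cxcl12. Over 37 GFP+ spheroid wells (without C9) the values were -0.14, -0.05 and 0.08. The wells share a scaling to total counts, and these values are descriptive. The gene most like Cxcr4 over the RFP+ wells was Tmem248 (rho 0.63 among 8393 genes), followed by Ndnl2, Serbp1, Tmem222 and Pdcd4. Over the GFP+ wells it was Fam222b (rho 0.63 among 8907 genes), followed by Ube2a, Stat3, Tmem206 and Frzb, so none of the 5 was shared. Cxcl12 went most closely with Peg12 (rho 0.64) and Crabp2 (rho 0.62), a retinoic acid binding protein, in GFP+ wells and with Trim35 (rho 0.64) and Trerf1 (rho 0.60) in RFP+ wells. Ackr3 went with Zik1 (rho 0.63) in GFP+ and Prkg1 (rho 0.60) in RFP+ wells, and its lowest value in RFP+ wells was for Aldh1a2 (rho -0.66), an enzyme that makes retinoic acid. These are extremes among all genes ranked, of which the 95th percentile was 0.26 to 0.29.

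Other genes of the axis were taken from lists that were assembled with earlier results of these data known. Other chemokine genes had few counts, with exceptions among the ligands. None of 23 other chemokine receptors passed the filter on low counts in either comparison of GFP+ with RFP+ cells, and the highest group mean among them was 15.7 CPM for Ccrl2 in GFP+ embryo wells, from 1 of 5 wells. Of 36 other chemokine ligands, 1 was tested in vivo (Ccl27a, adjusted p = 0.765, edgeR) and 3 in vitro, and all 3 were lower in RFP+ cells, where 40.1% of all genes were called lower. The largest of these was Cxcl16, a membrane-bound chemokine, which fell from 73.2 ± 30.9 CPM (SD) over the 38 GFP+ spheroid wells to 7.46 ± 7.86 CPM (SD) over the 46 RFP+ spheroid wells. Its log2 fold change was -3.33 (SE 0.22, adjusted p = 9.2e-26, edgeR), opposite in sign to that of Cxcl12, and it was counted in only 1 of 5 GFP+ and 1 of 4 RFP+ embryo wells.

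Of 58 genes that carry or end the receptors' signal, 40 were tested in vivo, with 2 higher and 1 lower in RFP+ cells, beside 10.1% of all genes called (6.21% higher and 3.88% lower). Prex2, an exchange factor for Rac, was higher by 7.08 (SE 1.60, adjusted p = 0.0149, edgeR) and Grk6, a kinase that desensitizes chemokine receptors, by 4.89 (SE 1.47, adjusted p = 0.0901, edgeR) on the log2 scale. Rhoa, a GTPase that acts on the cytoskeleton, fell by 1.16 (SE 0.33, adjusted p = 0.0594, edgeR). In vitro 43 were tested, with 17 higher and 15 lower, beside 77.9% of all genes called, and their median log2 fold change of -0.02 equalled that of all genes tested (-0.02). Prex2 (1.14) and Grk6 (0.79) were again higher in RFP+ cells there. The PI3 kinase subunits went apart in vitro, with Pik3r1 (regulatory) higher by 1.95 (SE 0.15) and Pik3cb (catalytic) lower by 2.02 (a log2 fold change of -2.02, SE 0.17). Rgs2, a regulator of G protein signalling (1.77), and the kinase Mapk3 (1.16) were called higher, and the G protein Gna13 (-1.53) and the exchange factor Vav3 (-1.68) were called lower.

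Of 28 genes that bind, trap or share the ligand and its receptors, 22 were tested in each source, with 3 higher and 3 lower in vivo (6.21% and 3.88% of all genes) and 12 higher and 7 lower in vitro (37.8% and 40.1% of all genes). Ramp2, an accessory protein of the adrenomedullin receptor, had no count in any GFP+ embryo well and 63.8 ± 27.4 CPM in RFP+ embryo wells (SD, n = 4), and it was called in both sources. Mif, a cytokine that also binds Cxcr4, was higher in RFP+ cells by 1.87 in vivo (SE 0.20) and 0.70 in vitro (SE 0.04) on the log2 scale. Cd164, a sialomucin that associates with Cxcr4, was lower by -1.29 and -0.74. Heparan sulfate proteoglycans hold Cxcl12 at the cell surface, and a pair of them was called in opposite directions between sources. Sdc4 gave 6.85 in vivo (SE 1.68) and -2.04 in vitro (SE 0.09), and Gpc3 gave -1.43 (SE 0.26) and 0.61 (SE 0.07). Gpc6 also changed sign, with -0.94 in vivo (adjusted p = 0.906, edgeR) and 0.54 in vitro, and was called only in vitro. Sdc1, Sdc2, Sdc3 and Gpc1 had positive log2 fold changes in both sources. None of them was called in vivo (adjusted p of 0.120 to 0.945, edgeR), and Sdc1 (0.01) was not called in vitro either. Sdc4 and Prex2 were each counted in 1 of 5 GFP+ embryo wells, so their fold changes in vivo rest on few reads. In vitro Gpc4 was lower (-1.45) and Calcrl, the partner of Ramp2, was higher (1.15).

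Of 26 regulators assembled around the axis and its tissues (transcription factors, apart from Vhl), 18 were tested in vivo. There 5 were higher in RFP+ cells and none lower, beside 6.21% and 3.88% of all genes. In vitro 20 were tested, with 11 higher and 8 lower, beside 37.8% and 40.1% of all genes (77.9% in either direction). Among those higher in vivo were Ebf1, Ebf2, Foxc2 and Six2, known from mesoderm of the head, pharynx or mesenchyme, and the study marks Six2 as a second heart field gene. Ebf1, Ebf2 and Foxc2 had no count in any GFP+ embryo well, and their means in RFP+ embryo wells were 27.2, 56.7 and 18.9 CPM. These 4 were also higher in RFP+ spheroid wells, from 2.88 for Ebf1 to 5.73 for Six2 on the log2 scale. Foxc1, known to sustain Cxcl12 in bone marrow stroma, was higher in vitro by 2.22 (SE 0.17) and did not pass the filter in vivo. Hif1a, known to induce Cxcr4 at low oxygen, gave 0.24 in vivo (adjusted p = 0.962, edgeR) and -0.14 in vitro (adjusted p = 0.0296, edgeR). Nrf1, whose motif lies in the Cxcr4 window above, gave 1.24 (adjusted p = 0.806) and -0.05 (adjusted p = 0.627). Stat5b was lower in vitro (-1.04) and Twist1 was higher (1.69).

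**Figure D5:**
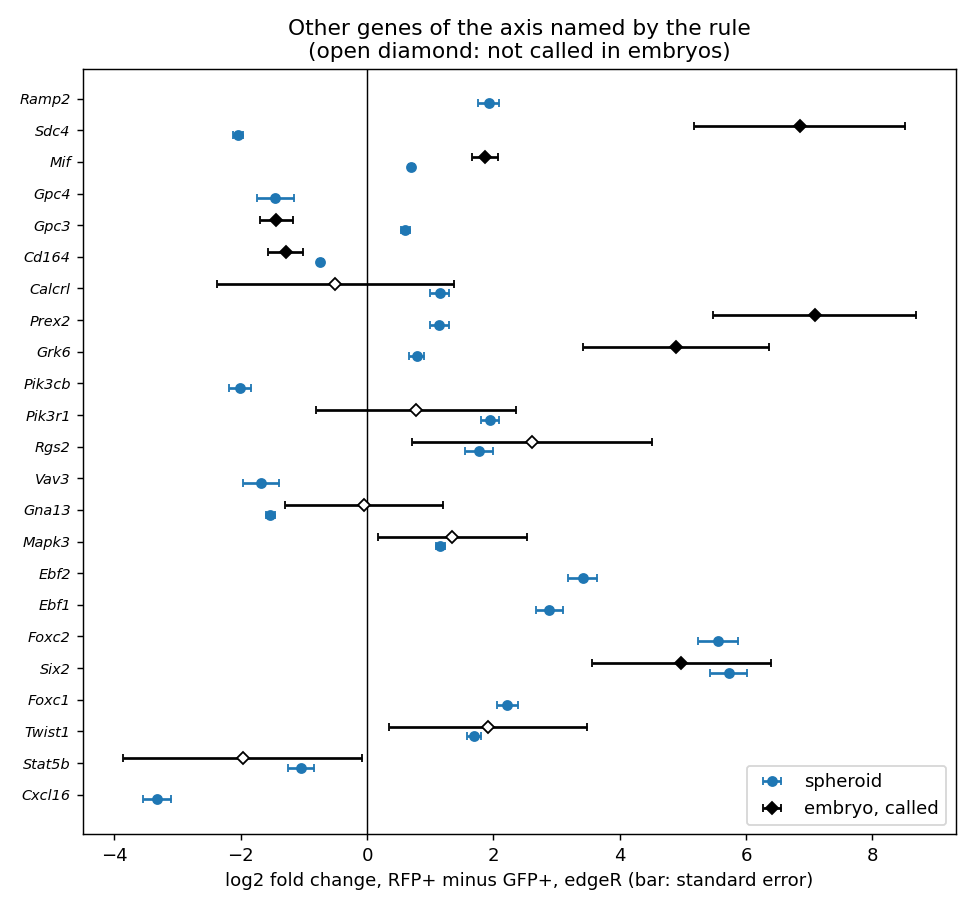
Log2 fold changes of RFP+ against GFP+ cells with bars of 1 standard error for 23 other genes named by rule, in spheroids (circles) and in embryos (diamonds, open where not called). Embryo values are not drawn for genes not tested there or without a count in GFP+ embryo wells (such as Ramp2 and Ebf2), and Sdc4 (6.85 and -2.04) and Gpc3 (-1.43 and 0.61) lie on opposite sides of 0.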

How the data were processed

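The authors sorted 10 cells per well, primed polyadenylated RNA, amplified it with a template-switching oligo and made transposase libraries without molecular identifiers. The deposited values are raw read counts per gene symbol for 93 wells, without normalization. The submitters' processing notes name Trimmomatic 0.36, HISAT2 2.0.4, featureCounts 1.5.2 and the build mm10, and the study gives a minimum read quality of 35 and length of 36. The annotation and strand setting are not given in the sources used here. Groups came from the sample labels.

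Counts were tested with edgeR 4.0.16 in R 4.3.3 (TMM, filterByExpr with minimum count 10, minimum total 15 and minimum proportion 0.7, quasi-likelihood F-test, Benjamini-Hochberg adjustment over all genes tested, threshold 0.1) within each pair of groups. Permutation tests used log2 CPM with a prior count of 2, at a threshold of 0.05. The difference between sources used the separate standard errors with 7 degrees of freedom. Printed CPM use total counts. The functions were tested on simulated counts. Genes were named by rule: those of each list called in vivo, or called in vitro with an absolute log2 fold change of at least 1, at most 8 per list. For each member, the 5 most and 3 least alike genes with a mean of at least 10 CPM were ranked. Rhoa, Hif1a, Nrf1, Ccl27a and Ccrl2 fall outside that rule and were named after their values were seen, and some genes that the rule names are not reported here. The members and lists were chosen with earlier results of these data known. Alternatives covered DESeq2 1.42.0, size factors, filters, a joint fit, plate row, summed pairs, the shallow well and each embryo well. Motifs, transcript lengths and the unfiltered difference between sources were added after the data had been seen.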

Additional observations from a re-analysis of the deposited data

Results flagged for a closer look

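In GFP+ embryo cells, 1 well stood apart from the other 4 for each of the 3 genes, and in each case it was a different well. Ackr3 was at 42.0 CPM in B12 (106 counts), against at most 8.42 CPM in the others. Cxcr4 was at 8.42 CPM in C12 (6 counts), against none in the others. Cxcl12 was at 5.10 CPM in A12 (5 counts), against at most 0.441 CPM in the others. The gap to the next well took up more of the group's range than Dixon's 95% limit. Groups of 5 and 4 embryo wells gave 6 such checks, 3 of which were flagged. Chance flags about 1 in 20 such groups, and a gene absent from most wells of 10 cells meets the rule whenever 1 well holds it.

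The difference between RFP+ and GFP+ cells in Cxcl12 was larger in embryos than in spheroids by the interaction term of 1 edgeR fit over all 4 groups (-5.06 on the log2 scale, adjusted p = 0.000116, in vitro minus in vivo). Fits made separately in each source gave a near-equal size (-4.88, adjusted p = 0.164) without a call.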

How the results depend on the processing

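The in vitro differences of all 3 genes, and those of all 3 between RFP+ sources, kept their side of the threshold under every alternative run, as did the receptors' values for the change between populations compared between sources. Calls between GFP+ sources did not. Leave-one-out log2 values in vivo ran from 0.50 to 1.26 for Cxcr4 (called only without GFP+ well C12), from 0.03 to 2.73 for Ackr3 and from 6.02 to 8.71 for Cxcl12 (not called without RFP+ well G12). The Ackr3 values were 0.03 to 1.36 by edgeR, whereas without C12 (2.26) or B12 (2.73) they are differences of mean log2 CPM, which was 1.92 over all wells. Between GFP+ sources they ran from 1.13 to 5.70 for Cxcr4, from -0.39 to 2.72 for Ackr3 (reversed and called without B12) and from 2.05 to 4.66 for Cxcl12. Between RFP+ sources they ran from 2.34 to 2.92, from -0.53 to 0.77 and from -2.99 to -2.33.

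Between GFP+ sources Cxcr4 was not called with total counts (1.33), DESeq2's size factors (1.01), no filter (1.49), DESeq2 (1.16) or without the shallowest well (1.54). Cxcl12 was not called there with DESeq2's size factors (2.02), no filter (2.37) or DESeq2 (2.03). Scaling moved the median log2 fold change of all genes in that comparison from 0.67 to 0.22 with DESeq2's size factors, and genes called higher from 5710 of 8036 to 4687 of 8160. In vivo the median moved from 0.09 to -0.04. The joint fit called the Cxcl12 difference between sources (-5.06). With at least 3 counts, detection in RFP+ minus GFP+ wells was 30.0 percentage points for Cxcr4 in vivo (no longer below 0.05), 28.9 in vitro and 80.0 for Cxcl12 in vivo (both now below it).

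Background counts of called genes in vivo rose from 858 to 2000 without a filter, 1936 with DESeq2 and 7115 in the joint fit, and in vitro from 7747 to 13109 without a filter. The signal list had 8 genes higher in vivo without a filter, 11 with DESeq2 and 23 in the joint fit, against 2. The causes were not tested. No paired analysis was possible because wells carry no replicate number shared between groups. With 5 and 4 embryo wells of 10 cells and counts of 0 to 6 for Cxcr4, and with standard errors of 1.85 (Cxcr4, no filter) and 1.81 (Ackr3) on the log2 scale, differences of the size seen in vitro were not detectable for the receptors in vivo.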
